A study of Mus musculus with 11 samples.

Results

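The 30 genes described here encode the enzymes that make cholesterol and fatty acids, with the factors that control and move sterols, and they were measured on 11 single-colour arrays of mouse otospheres, cochlear sensory epithelium (CSE) and embryonic stem cells (ESCs). They were found as the array probes whose RefSeq accession belonged to a listed gene symbol, with the probe of the highest mean signal taken for each gene. All 30 listed genes had a probe, 41 probes in all, out of 20284 genes named on the arrays, and all 30 passed the filter on dim probes, which 18565 named genes passed. Each chosen probe was well above background on all 11 arrays by the scanner's flag. The rule used gene symbols and no difference between groups, but the genes were listed with earlier results of these data known.

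Otospheres (OS) are floating spheres grown from dissociated cells of the cochlea, and the study compared them with the tissue they came from and with ESCs to describe a stem or progenitor population. CSE was dissected from ICR mice aged 1 day, with 20 cochleae pooled per preparation, so a CSE sample is a mixture of the cells left on the organ. OS were grown from such preparations in DMEM/F12 with N2, B27, bFGF at 10 ng/ml, IGF1 at 50 ng/ml, heparan sulfate and no serum named, were passaged to obtain secondary spheres after 4 to 5 days, were cultured for 4 to 5 days more and were strained to remove hollow spheres. The 2 ESC arrays come from different lines, ES1 from G4-2 and ES2 from D3, both at passage 13 without feeder cells in DMEM with 10% fetal bovine serum and 1000 U/ml of LIF. The ESC group therefore has 1 culture per line, and the strain of the ESCs is not given in the labels. Of the 6 OS arrays, OS1 and OS2 differed by less than the noise between spots of a probe, as did OS4 and OS5, so each pair was averaged and counted as 1 sample, which leaves 2 ESC, 4 OS (OS1-2, OS3, OS4-5, OS6) and 3 CSE samples. Nothing in the labels ties an OS sample to a separate set of mice, so the p-values measure the spread between these samples, which may be technical.

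Cells make cholesterol from acetyl-CoA through mevalonate, farnesyl diphosphate and squalene, which is closed to lanosterol and then trimmed in a series of steps to cholesterol. The transcription factor SREBP2, encoded by Srebf2, drives most of these genes when sterols in the endoplasmic reticulum run low, while INSIG proteins hold SREBP back when sterols are plentiful. Its relative SREBP1, encoded by Srebf1, drives mainly fatty acid synthesis and desaturation. In the nervous system and the inner ear, cholesterol is a large part of myelin and of the membranes of sensory cells.

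The arrays had 55.1% to 71.6% of spots well above background, and no spot was saturated. Signals are normalized log2 intensities, and a level of one probe cannot be set against that of another. The defining ESC genes Pou5f1, Zfp42 and Dppa5a were between 11.19 and 17.25 in the ESC samples and at most 7.13 elsewhere. The only probe named as Nanog here, another gene of ESCs, went the other way, with means of 8.38 in the ESCs, 9.82 in OS and 10.03 in CSE. The paper, by contrast, places Nanog among its genes high only in ESCs, and did not detect NANOG protein in otospheres. The cause of this discrepancy was not tested. Of 6 hair cell markers 3 were lower in OS than in CSE, and of 6 supporting cell markers 5. Of 4 endothelial markers 2 were lower, and of 3 measured erythroid markers 2. Of all named genes, 10.3% were lower and 7.17% higher in OS than in CSE. Hba-a1, a globin of red cells, was at 14.20 to 15.66 in CSE and 5.55 to 6.23 in OS. Of 7 myelinating Schwann cell markers, 3 were lower and 1, Mbp, was higher in OS, and with each gene centred on its own mean the list averaged 1.17 to 1.53 in CSE, -0.59 to 0.18 in OS and -1.77 to -1.31 in the ESCs. The supporting cell list had a centred mean of 1.70 to 2.28 in CSE and -0.86 to -0.63 in OS, and the hair cell list of 1.42 to 1.76 and -1.48 to 0.73. The 5 adipocyte markers differed by -0.23 to 1.07 on the log2 scale between OS and CSE with no call. Of these, Adipoq, Plin1 and Fabp4 were well above background on only 3 of 6 OS arrays each, and Cidec and Lep on 5 and 6. The lack of a call for genes so near the background says little. Of 4 measured macrophage markers Cd14 was higher and Csf1r lower in OS. Most of these cell type lists had a negative median difference between OS and CSE, the groups between which lipid genes also differed. The part of cell types in the lipid gene differences was not tested. In bulk RNA, fewer cells of a type and less RNA per cell cannot be told apart.

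Between OS and CSE, 6 of the 30 genes were higher in OS and 0 were lower at an adjusted p under 0.05 in limma. The 6 are Sc5d, Insig1, Msmo1, Lss, Fdft1 and Fdps, with rises from 2.12-fold to 3.89-fold. Of the background of 18565 named genes, 7.17% were called higher and 10.3% lower in the same comparison. The 6 of 30 make 20% of the genes. Counted at an unadjusted p under 0.05, 12 of the 30 were higher and 0 were lower, against 14.2% and 18.2% of all named genes. The median difference over the 30 genes was 0.61 on the log2 scale, against -0.01 over all named genes, and 23 genes had a positive and 7 a negative difference. In 11 of the 30, the OS and CSE samples did not overlap, and all 11 had the higher values in OS. Of the named genes with a value in every sample, 14.1% had all OS samples above CSE and 18.9% had all below.

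**Figure D1:**
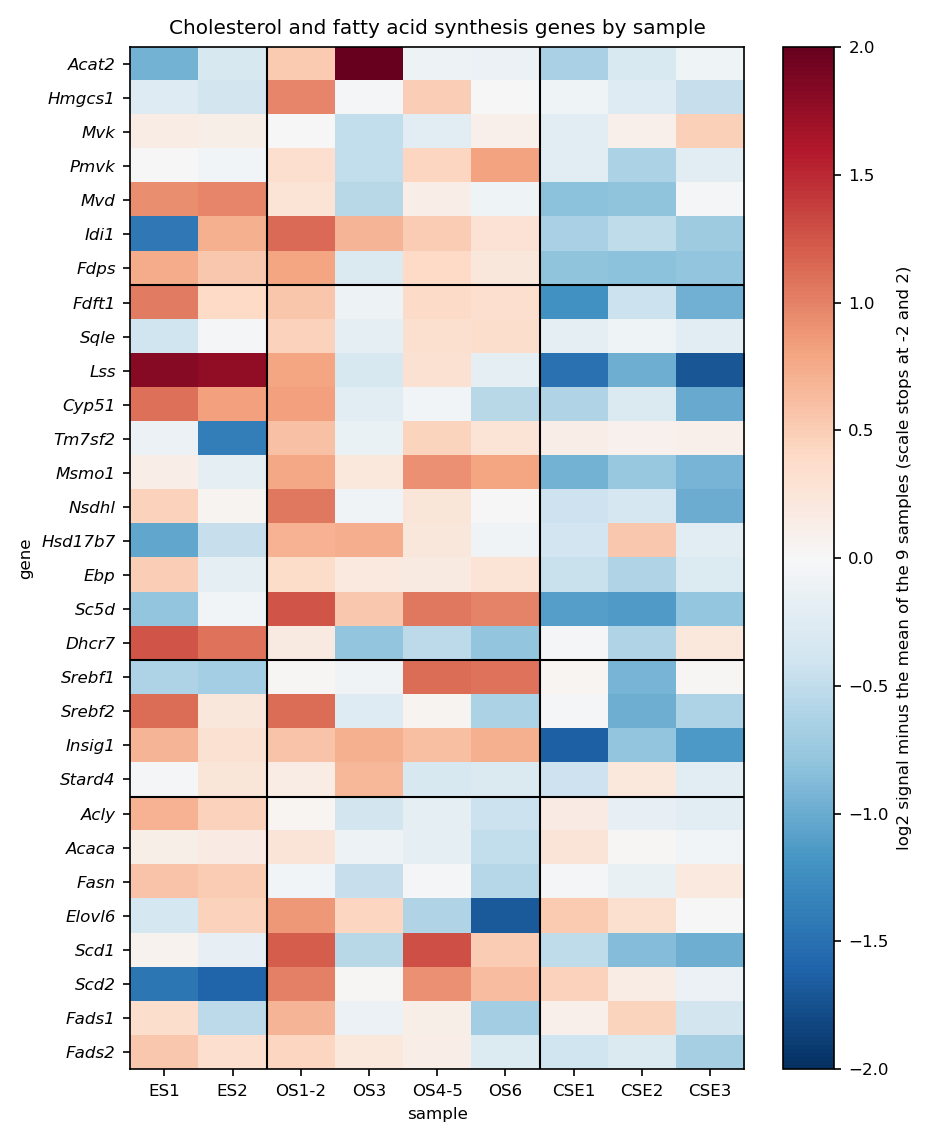
Normalized log2 signal of the 30 genes in the 9 samples, each gene centred on its mean over the samples, with horizontal lines between the mevalonate, squalene to cholesterol, control and transport, and fatty acid genes and vertical lines between ES, OS and CSE. The colour scale runs from -2 to 2, the sterol rows are mostly blue in the 3 CSE samples, and the Acat2 value of OS3 lies closest to the upper end.

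The 6 called genes fell in 3 of the 4 groups of the list. Of the 11 enzymes from squalene to cholesterol 4 were higher in OS, of the 7 enzymes of the mevalonate part 1, of the 4 control and transport genes 1, and of the 8 fatty acid genes 0. The medians were 0.69, 0.63, 0.72 and -0.12 on the log2 scale in that order. The counts of the groups were not tested against each other.

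Sc5d, the desaturase that acts on lathosterol near the end of the pathway, had the largest difference among the 30. Its log2 signal was 11.50, 10.78, 11.30 and 11.24 in OS1-2, OS3, OS4-5 and OS6 and 9.14, 9.12 and 9.48 in CSE1, CSE2 and CSE3. All 4 OS samples were above all CSE samples, and above the ESCs at 9.46 and 10.19. The difference from CSE was 1.96 ± 0.24 (log2, SE), or 3.89-fold, with an adjusted p of 0.0013.

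Insig1, which anchors the SREBP escort protein in the endoplasmic reticulum and is itself raised by SREBP, varied least within OS. It read 9.68, 9.82, 9.71 and 9.83 in the OS samples, 7.48, 8.32 and 7.96 in CSE, and 9.79 and 9.41 in the ESCs. OS and the ESCs thus overlapped, and CSE lay below both. The OS to CSE difference was 1.84 ± 0.21 (log2, SE), or 3.57-fold, with an adjusted p of 0.00098. Msmo1, the oxidase that removes methyl groups from sterols, read 14.16, 13.60, 14.30 and 14.17 in OS and 12.43, 12.62 and 12.45 in CSE. No OS value came within the CSE range, and the 13.51 and 13.21 of the ESCs lay between the groups. The difference was 1.56 ± 0.20, or 2.94-fold, with an adjusted p of 0.0016.

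Lss, lanosterol synthase, which closes squalene epoxide into the sterol rings, set the 3 groups apart. It read 9.85, 8.74, 9.38 and 8.89 in OS, 7.58, 8.08 and 7.36 in CSE, and 10.89 and 10.84 in the ESCs. The ranges did not touch, with the ESCs highest and CSE lowest, and OS exceeded CSE by 1.54 ± 0.29 (2.91-fold, adjusted p = 0.010). Fdft1, squalene synthase, read 12.35, 11.69, 12.16 and 12.13 in OS, 10.58, 11.36 and 10.83 in CSE, and 12.82 and 12.18 in the ESCs. Here OS and the ESCs overlapped, and OS exceeded CSE by 1.16 ± 0.26 (2.23-fold, adjusted p = 0.021). Its second, dimmer probe gave 0.33 with an adjusted p of 0.32. Fdps, which makes farnesyl diphosphate, the branch point to sterols and prenylated proteins, read 14.78, 13.70, 14.39 and 14.22 in OS and 13.18, 13.18 and 13.21 in CSE. CSE was lower and very even, the ESCs at 14.74 and 14.53 were inside the OS range, and the difference was 1.08 ± 0.24 (2.12-fold, adjusted p = 0.021).

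Sc5d, Insig1 and Msmo1 kept their call under each of the 18 tested alternatives. Within slide 1 and slide 2 their differences were 2.01 and 1.79, 1.85 and 1.80, and 1.35 and 1.79 on the log2 scale. Slide 2 held OS4-5, OS6 and CSE3, so its differences rest on a single CSE sample. When CSE3 was left out, only Sc5d, Insig1 and Msmo1 were still called. The same 3 were called when arrays were set to one median. Lss lost its call in those cases. Fdft1 lost it there, with a replicate block fitted on every array as a separate sample, and without OS1-2, OS4-5 or CSE1, and Fdps lost it there and without OS4-5, CSE1 or CSE2. Leaving out single samples moved Lss between 1.33 and 1.75, Fdft1 between 0.99 and 1.38 and Fdps between 0.91 and 1.27. With every array taken as its own sample, 11 genes were higher, a setting for which the share of all named genes was not computed. With arrays set to one median, 3.87% of all named genes were called higher in OS than in CSE.

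**Figure D2:**
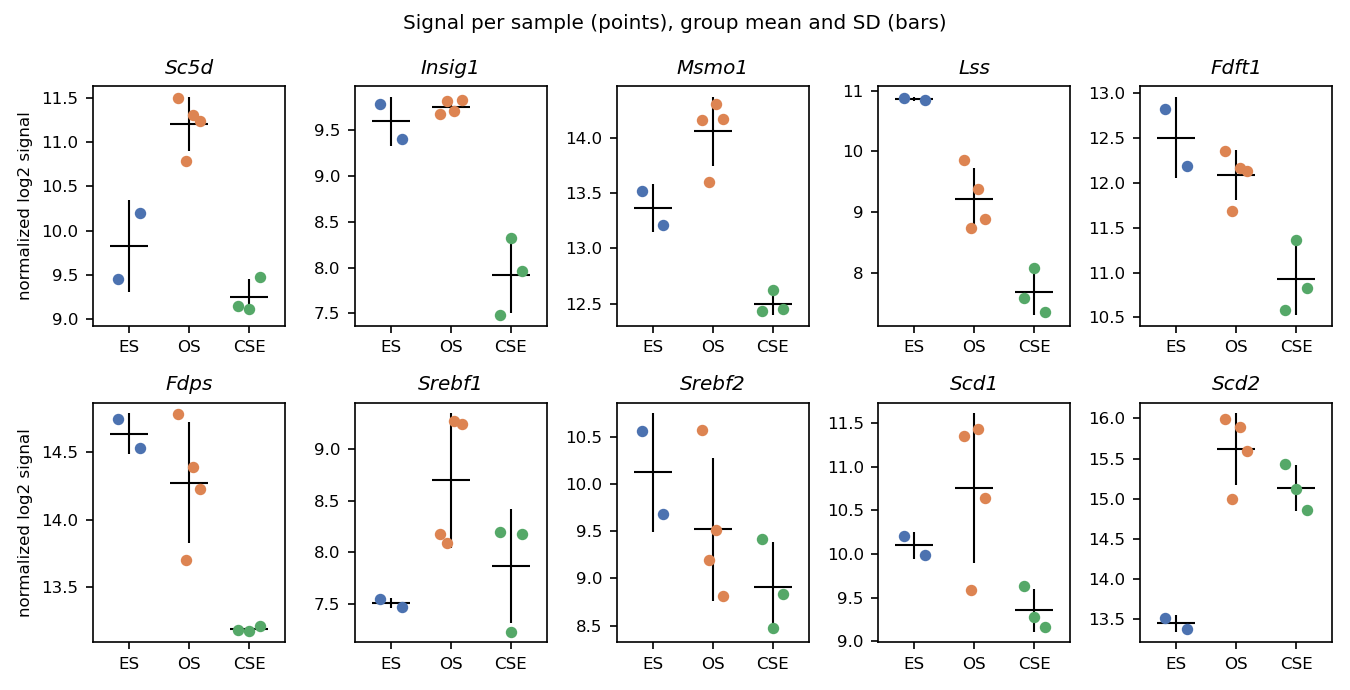
Normalized log2 signal of 10 of the genes, 1 point per sample, for ES (2 samples), OS (4) and CSE (3), with the group mean as a line and the SD as a bar, each panel on its own vertical scale that does not start at 0. In Sc5d, Insig1, Msmo1, Lss, Fdft1 and Fdps all OS points lie above all CSE points, whereas in Srebf1, Srebf2, Scd1 and Scd2 the OS and CSE points overlap.

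The promoters of the 4 genes with the largest of these rises are shown with that of Hmgcs1, the synthase that opens the mevalonate pathway. Hmgcs1 was added because it alone among the 23 genes with a promoter window held the sterol element searched for. Each promoter is the window of 300 bases from 250 before the annotated start, from RefSeq on build GRCm38.p6, printed on the strand of the gene. Sc5d lies at chr9:42264251-42264550 on the minus strand, Insig1 at chr5:28071162-28071461 on the plus strand, Msmo1 at chr8:64733529-64733828 on the minus strand, Lss at chr10:76531355-76531654 on the plus strand and Hmgcs1 at chr13:119690101-119690400 on the plus strand. Capitals mark CCAAT in either orientation, the box bound by the factor NF-Y, and TCACNCCAC in either orientation, a form of the sterol regulatory element bound by SREBP. Only exact matches to these letters were read, so a window without a match may hold another form of the element.
Sc5d: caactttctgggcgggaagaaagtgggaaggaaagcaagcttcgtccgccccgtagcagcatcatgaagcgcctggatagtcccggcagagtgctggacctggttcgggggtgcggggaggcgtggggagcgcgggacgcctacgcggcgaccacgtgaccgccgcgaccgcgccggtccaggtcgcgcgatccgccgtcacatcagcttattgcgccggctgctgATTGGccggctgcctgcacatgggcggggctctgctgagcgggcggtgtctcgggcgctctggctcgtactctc
Insig1: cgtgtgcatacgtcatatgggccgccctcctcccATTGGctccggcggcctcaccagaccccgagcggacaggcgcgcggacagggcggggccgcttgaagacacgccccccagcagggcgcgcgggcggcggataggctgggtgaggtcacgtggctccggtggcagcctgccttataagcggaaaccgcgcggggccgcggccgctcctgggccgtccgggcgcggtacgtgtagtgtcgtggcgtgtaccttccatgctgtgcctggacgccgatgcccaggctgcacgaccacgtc
Msmo1: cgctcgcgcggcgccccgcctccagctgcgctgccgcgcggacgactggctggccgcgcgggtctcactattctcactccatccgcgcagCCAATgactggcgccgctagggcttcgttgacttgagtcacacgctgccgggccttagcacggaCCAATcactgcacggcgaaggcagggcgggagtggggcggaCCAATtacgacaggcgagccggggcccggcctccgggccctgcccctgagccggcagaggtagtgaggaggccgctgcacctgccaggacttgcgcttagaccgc
Lss: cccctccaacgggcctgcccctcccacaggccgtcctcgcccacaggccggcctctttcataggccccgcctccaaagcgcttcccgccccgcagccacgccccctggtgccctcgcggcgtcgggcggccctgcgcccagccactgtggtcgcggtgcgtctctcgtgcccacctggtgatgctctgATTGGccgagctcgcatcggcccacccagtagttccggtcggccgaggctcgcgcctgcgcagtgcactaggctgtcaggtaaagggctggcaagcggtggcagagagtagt
Hmgcs1: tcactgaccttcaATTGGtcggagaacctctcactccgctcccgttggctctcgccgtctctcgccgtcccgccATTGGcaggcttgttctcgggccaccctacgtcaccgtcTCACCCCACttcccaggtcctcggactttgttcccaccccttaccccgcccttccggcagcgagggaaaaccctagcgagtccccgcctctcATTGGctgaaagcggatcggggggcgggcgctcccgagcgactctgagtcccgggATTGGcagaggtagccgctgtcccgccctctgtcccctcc

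Of the 30 genes 23 had such windows, 28 in all, and motifs were read on both strands. The 7 genes without a window included Fdft1 and Fdps. CCAAT was in 71.4% of the 28 windows, against 37.4% of the 32851 windows of all genes and 37.7% of the 18188 windows of the genes measured here. It came in windows of 19 genes, with 3 matches in Msmo1, 4 in Hmgcs1 and 1 each in Sc5d, Insig1 and Lss. The element TCACNCCAC was in 1 of the 28 windows, that of Hmgcs1, where its first base lies 137 bases before the annotated start, against 1.24% of all windows. GGGCGG, the box bound by Sp1, was in 75% of the windows, against 35.7% of all and 52.2% of those of measured genes. CACGTG, the E-box, was in windows of 4 genes, Sc5d, Insig1, Dhcr7 and Hsd17b7, or 14.3%, against 7.15% of all. No match of one motif overlapped that of another in the windows of the 30 genes. Matches are a description of the letters, and no binding was measured in these samples.

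**Figure D3:**
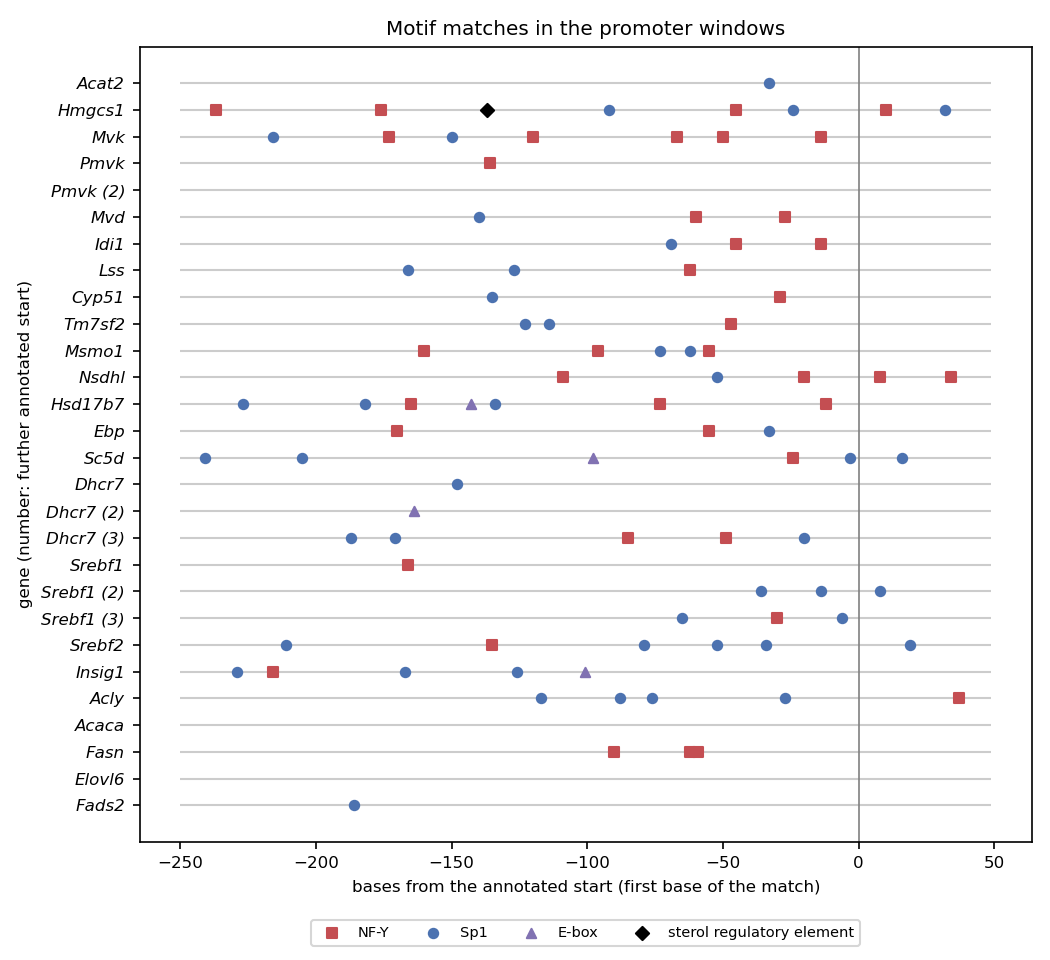
Positions of the 4 motifs in the 28 promoter windows of 23 genes, in bases from the annotated start, with 1 line per window and a number after the symbol where a gene has a further start. CCAAT matches (squares) appear in 20 of the 28 windows, and the form of the sterol regulatory element searched for (diamond) in that of Hmgcs1 alone.

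Of the other control and transport genes, Srebf2, Srebf1 and Stard4 each had a positive difference that did not pass the threshold. Srebf2 read 10.57, 9.19, 9.51 and 8.81 in OS, 9.42, 8.48 and 8.84 in CSE, and 10.56 and 9.68 in the ESCs. The 3 groups overlapped except that both ESC values exceeded CSE, and OS minus CSE was 0.61 ± 0.43 (log2, adjusted p = 0.51). Srebf1 read 8.18, 8.08, 9.27 and 9.24 in OS, 8.20, 7.23 and 8.18 in CSE, and 7.54 and 7.47 in the ESCs. Its OS values came in pairs, with those of slide 1 within the CSE range and those of slide 2 above it, and the difference was 0.83 ± 0.37 (adjusted p = 0.24). Stard4, which carries sterol between membranes, read 10.43, 10.94, 9.95 and 9.99 in OS and 9.85, 10.48 and 10.04 in CSE. These overlapped, as did the 10.25 and 10.51 of the ESCs, and the difference was 0.20 ± 0.27 (adjusted p = 0.79). A second, dimmer probe of Stard4 gave 0.30 for OS minus CSE (adjusted p = 0.67). Against the ESCs that probe was lower, by -1.24 in OS (adjusted p = 0.020) and by -1.54 in CSE (adjusted p = 0.0090).

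Of the other mevalonate enzymes, Idi1 and Hmgcs1 had OS values above all CSE values without passing the threshold, at 1.28 ± 0.44 (log2, SE, adjusted p = 0.11) and 0.63 ± 0.26 (adjusted p = 0.19). Idi1 makes the isoprenoid unit that chain building starts from. Acat2, the thiolase that joins acetyl-CoA units, stood at 0.92 ± 0.48, with OS3 at 11.13 and the other OS samples at 9.02 to 9.66. Pmvk, Mvd and Mvk, which carry mevalonate to its diphosphate and beyond, had 0.62, 0.49 and -0.27.

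Among the later enzymes that were not called, Ebp, the sterol isomerase, just missed the threshold at an adjusted p of 0.0504 with 0.69 ± 0.19 on the log2 scale. Its OS range of 13.06 to 13.24 lay above the CSE range of 12.27 to 12.61. Nsdhl, which removes carbon from sterol methyl groups, had 0.88 ± 0.30, again with no overlap (adjusted p = 0.11). Cyp51, Hsd17b7, Sqle and Tm7sf2 had 0.63, 0.42, 0.40 and 0.18, and Dhcr7, the last reductase, had -0.34.

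Fatty acid genes gave no call between OS and CSE, and counted at an unadjusted p under 0.05 2 of the 8 were higher and 0 were lower, against the 14.2% and 18.2% of all named genes. Scd1, which puts the double bond into stearate, had the largest difference, 1.40 ± 0.41 (log2, SE, adjusted p = 0.067), with 11.35, 9.59, 11.44 and 10.65 in OS and 9.63, 9.28 and 9.16 in CSE. Only OS3 fell within the CSE range, and without OS3 the difference was 1.79 and passed the threshold. Fads2, a desaturase of polyunsaturated fatty acids, had 0.58 with no overlap (adjusted p = 0.11). Acly, Acaca, Fasn, Elovl6 and Fads1, which supply, build and lengthen or desaturate fatty acids, lay between -0.53 and -0.07. For Acly a dimmer second probe gave the opposite sign, 0.74 with an adjusted p of 0.012, and the 3 probes of Acaca differed in sign too.

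**Figure D4:**
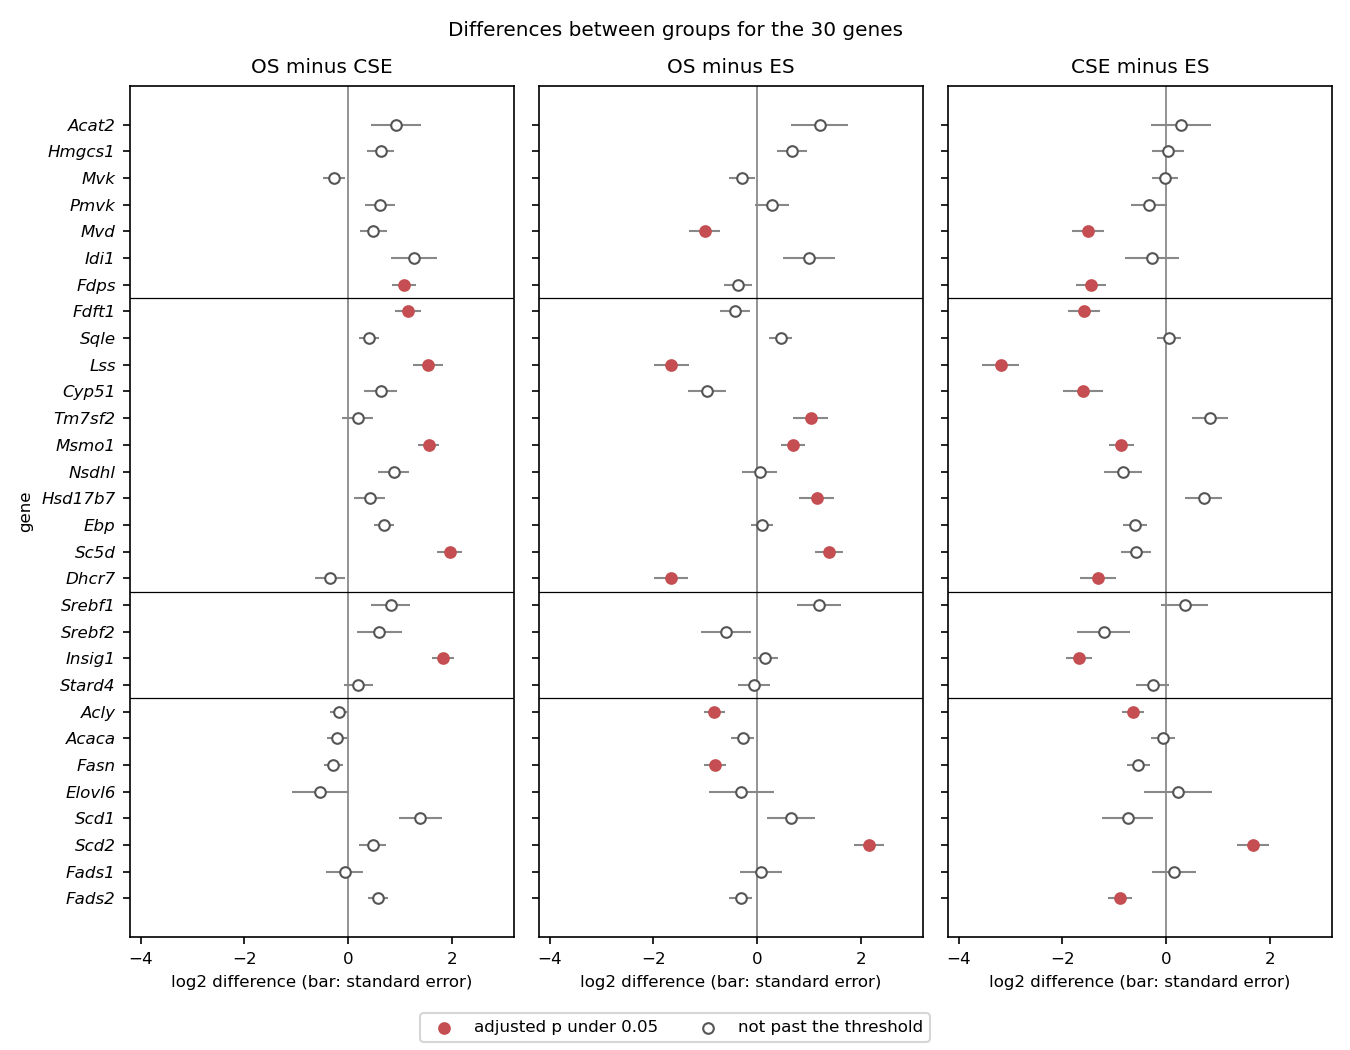
Log2 difference between groups for the 30 genes with its standard error as a bar, in 3 panels for OS minus CSE, OS minus ES and CSE minus ES, with filled points where the adjusted p was under 0.05. In the first panel 6 filled points lie to the right of 0 and 0 to the left, in the second 5 and 5, and in the third 1 and 10.

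Within OS the samples did not stand level. OS1-2 had the highest value of the 4 OS samples for 20 of the 30 genes, and OS3 and OS6 had the lowest for 15 and 12. The same counts over all named genes were not made, so this order may not be particular to the 30 genes. Centred per gene over the 9 samples, the mean of the 30 genes was 0.59 in OS1-2, 0.03 in OS3, 0.27 in OS4-5 and 0.02 in OS6. It was -0.39, -0.36 and -0.42 in CSE and 0.16 and 0.10 in the ESCs, so each OS sample was above each CSE sample. The median SD of a gene was 0.42 among OS, 0.27 among CSE and 0.19 among the ESCs.

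Elovl6, which lengthens palmitate, varied most within OS among the fatty acid genes. It read 12.44, 12.01, 10.98 and 9.91 in OS1-2, OS3, OS4-5 and OS6. A list of 5 proliferation genes gave the same order of samples, with a centred mean of 1.08, 0.02, -1.20 and -3.07. Whether the orders are related was not tested.

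**Figure D5:**
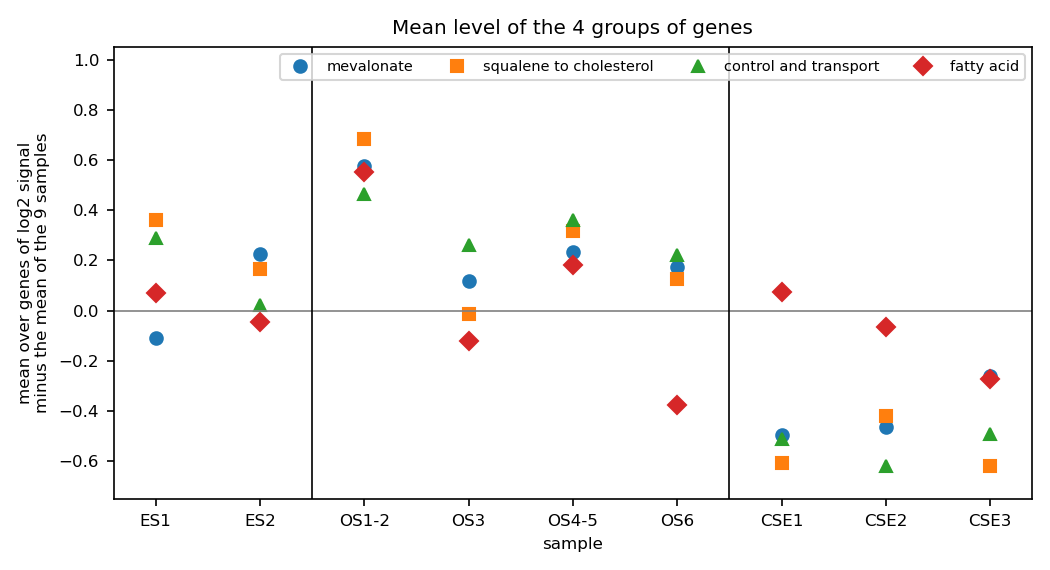
Mean over the genes of a group of the log2 signal minus each gene's mean over the 9 samples, for 4 groups of genes in each of the 9 samples. The 3 sterol groups lie below 0 in all 3 CSE samples, while the fatty acid genes run from -0.38 in OS6 to 0.55 in OS1-2.

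Compared with the ESCs, 5 of the 30 genes were higher and 5 lower in OS. Higher were Scd2, Sc5d, Hsd17b7, Tm7sf2 and Msmo1, and lower were Dhcr7, Lss, Mvd, Acly and Fasn. Of all named genes 18.4% were called higher and 20.4% lower, so the members' shares of 16.7% in each direction were close to the background. The median over the 30 genes was 0.07 on the log2 scale. In 7 genes all OS samples were above the ESCs and in 7 all were below, against 25.9% and 28.9% of named genes, so these shares of 23.3% were also close to the background.

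Scd2, the stearoyl desaturase known from brain and developing tissue, rose most. It read 15.99, 14.99, 15.89 and 15.59 in OS and 13.52 and 13.38 in the ESCs, with 15.43, 15.12 and 14.86 in CSE. Both cochlear groups were well above the ESCs and overlapped each other. OS minus ES was 2.16 ± 0.29 (log2, SE, 4.48-fold, adjusted p = 0.00070). Scd1, its close relative, gave 0.66 ± 0.47 in the same comparison with overlap (adjusted p = 0.36).

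Hsd17b7, a reductase of sterol ketones, read 10.11, 10.16, 9.65 and 9.35 in OS, 8.38 and 8.96 in the ESCs, and 9.04, 9.96 and 9.19 in CSE. OS was above the ESCs in every sample, by 1.15 ± 0.34 (log2, SE, adjusted p = 0.033). Tm7sf2, a sterol reductase of the inner nuclear and endoplasmic membranes, read 12.51, 11.80, 12.37 and 12.20 in OS, 11.82 and 10.55 in the ESCs and 12.06, 12.02 and 12.02 in CSE. The 2 ESC lines were far apart, OS3 lay just under ES1, and the difference was 1.04 ± 0.33 (adjusted p = 0.048). A second, dimmer probe of Tm7sf2 gave 0.57 (adjusted p = 0.33), while that of Hsd17b7 gave 1.42 (adjusted p = 0.0014). Sc5d was higher by 1.38 ± 0.27 (adjusted p = 0.0050). Msmo1 was higher by 0.70 ± 0.23 (adjusted p = 0.048), a direction that turned to -0.041 with the processed signal scaled to the 75th percentile and to -0.090 with arrays set to one median.

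Dhcr7, which reduces the last double bond on the way to cholesterol, fell most. It read 9.38, 8.42, 8.68 and 8.41 in OS, 10.47 and 10.29 in the ESCs, and 9.18, 8.61 and 9.42 in CSE. Neither cochlear group reached the ESCs, and OS minus ES was -1.66 ± 0.32 (log2, SE, adjusted p = 0.0047). Lss was at -1.65 ± 0.33 (adjusted p = 0.0054). Mvd, the decarboxylase that ends the mevalonate steps, read 11.02, 10.20, 10.89 and 10.66 in OS and 11.68 and 11.72 in the ESCs. It too did not overlap, at -1.01 ± 0.30 (adjusted p = 0.033). Acly, which supplies cytosolic acetyl-CoA, and Fasn, fatty acid synthase, were both at -0.82 (adjusted p = 0.015 and 0.019).

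With 2 ESC samples of different lines, many of these calls rested on single samples. Scd2, Sc5d, Dhcr7 and Lss were called in each of 9 runs that left out 1 sample. Acly was not called without ES1, Fasn without ES1 or ES2, Hsd17b7 without ES1, OS1-2, OS3 or OS4-5, and Mvd without ES1, ES2, OS3, OS4-5 or OS6. Over the 9 runs Hsd17b7 ranged from 0.86 to 1.44 and Mvd from -1.12 to -0.85. Tm7sf2 was called only without ES1 or OS3 and ranged from 0.40 to 1.67, and Msmo1 was called only without OS3, with 0.54 to 0.85. The count of higher genes fell to 2 without OS1-2 or OS4-5, and to 3 without ES1, OS6, CSE1, CSE2 or CSE3. That of lower genes fell to 2 without ES1 and 3 without ES2. With arrays set to one median, Lss, Dhcr7 and Acly stayed lower and 1 gene, Hsd17b7, stayed higher.

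Between CSE and the ESCs, 10 genes were lower and 1 was higher in CSE. Lower were Lss, Insig1, Cyp51, Fdft1, Mvd, Fdps, Dhcr7, Fads2, Msmo1 and Acly, and higher was Scd2. All named genes gave 20% lower and 20.9% higher, against 33.3% and 3.33% of the 30. With arrays set to one median 0 of the 30 were higher, and the background was 20.1% lower and 13.9% higher. With the processed signal scaled to the 75th percentile 0 were higher too, and the background was 23% lower and 16.8% higher. Over all settings tried, 6 to 12 of the 30 were lower. In the main run the median of the 30 was -0.56 on the log2 scale. In 16 genes all CSE samples were below the ESCs and in 3 all were above, against 31.7% and 31.6% of named genes. Since this comparison shares CSE with that of OS and CSE, and the ESCs with that of OS and the ESCs, the 3 sets of differences are not independent.

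Lss had the largest difference of all 3 comparisons, -3.19 ± 0.35 (log2, SE, adjusted p = 0.00023), or 9.14-fold lower in CSE. Insig1 was lower by 3.2-fold, at -1.68 ± 0.25 (adjusted p = 0.0012), and Fdft1 by 2.99-fold, at -1.58 ± 0.31 (adjusted p = 0.0045). A second, dimmer probe of Fdft1 gave 0.16 (adjusted p = 0.64), while that of Acly gave -1.54 (adjusted p = 0.00026). Cyp51, the demethylase that acts on lanosterol, read 8.19, 8.50 and 7.78 in CSE, 9.90 and 9.61 in the ESCs and 9.60, 8.57, 8.74 and 8.24 in OS. CSE lay wholly below the ESCs, with OS running from inside the CSE range to just under the ESCs, and CSE minus ES was -1.59 ± 0.38 (adjusted p = 0.013). Mvd read 9.93, 9.94 and 10.72 in CSE, below both ESC values, at -1.50 ± 0.31 (adjusted p = 0.0066). Fdps was at -1.44 ± 0.28 (adjusted p = 0.0049). Scd2 went the other way at 1.68 ± 0.31 (adjusted p = 0.0034), and it lost its call under the 2 other scalings, with 0.62 as its smallest value.

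Lss, Insig1, Fdft1, Mvd, Fdps and Scd2 were called whichever sample was left out. Cyp51 was not called without ES1, Fads2 without ES1 or CSE3, Msmo1 without ES1, CSE1 or CSE3, and Dhcr7 without ES1, ES2 or CSE2. Acly was called only without OS1-2 or CSE1. Without ES1, 6 genes were lower and 2 were higher.

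Ordered by group means, 8 of the 30 genes ran from ESCs through OS to CSE, among them Lss, Fdft1, Fdps, Mvd, Cyp51 and Srebf2. Another 8 were highest in OS and lowest in CSE, among them Sc5d, Insig1, Msmo1 and Scd1. In 7, including Scd2, Hsd17b7 and Srebf1, OS was highest and the ESCs lowest. In 5, namely Mvk, Dhcr7, Acly, Acaca and Fasn, the ESCs were highest and OS lowest. Neighbours in these orders often differed by less than their spread, as for Insig1 between OS and the ESCs. The F-test over the 3 groups called 14 of the 30 genes, against 48.7% of all named genes.

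A further 55 genes of the same pathways, taken from a list of sterol, fatty acid and lipoprotein genes, were all measured. Of these 7 were higher and 6 lower in OS than in CSE, or 12.7% and 10.9%, against 7.17% and 10.3% of all named genes. Among the 10 genes of sterol uptake and traffic 3 were higher and 0 lower. Among them Vldlr, a lipoprotein receptor, was higher by 1.45 (log2, adjusted p = 0.040) and Stard5, a sterol carrier, by 0.72 (adjusted p = 0.044).

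Of the 5 further genes listed as sterol enzymes, 1 was called between OS and CSE, Acat1, which was lower in OS by 2.63-fold (adjusted p = 0.0081). Acat1 is a mitochondrial thiolase, distinct from the Acat2 of the mevalonate part, so this call is not read as one of a sterol enzyme. The SREBP partners Scap, Insig2, Mbtps1 and Mbtps2 had differences from -0.65 to 1.01 with adjusted p from 0.062 to 0.91.

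On the side of sterol storage and export, Soat1, which esterifies cholesterol, was higher in OS than in CSE by 1.55 (log2, adjusted p = 0.0028), and Abcg1, a sterol exporter, was lower by 6.42-fold (adjusted p = 0.015). Among 13 further fatty acid synthesis genes, Fads3 was higher by 2.33 (adjusted p = 0.00065) and Aacs, which activates acetoacetate, by 1.35 (adjusted p = 0.026). Thrsp and Hacd3 were lower, by 3.08-fold and 1.67-fold (adjusted p = 0.0068 and 0.010). Among 15 genes of fatty acid uptake, storage and oxidation, Pdk4, which restrains glucose oxidation, was higher by 2.98 (adjusted p = 0.0024). Angptl4, an inhibitor of lipoprotein lipase, was lower by 4.69-fold (adjusted p = 0.0067), and Cd36, a fatty acid receptor, was lower in the fit (adjusted p = 0.016) but was not well above background on any OS or ESC array.

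Against the ESCs, 14 of these 55 genes were higher and 6 lower in OS, and 15 were higher and 7 lower in CSE. These are 25.5% and 10.9% in OS, against 18.4% and 20.4% of all named genes, and 27.3% and 12.7% in CSE, against 20.9% and 20%. The sets of 55 and of 30 were not tested against each other.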

How the data were processed

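Total RNA of ES, OS and CSE (50 or 100 ng) was labelled with Cy3 and hybridised to 11 Agilent 8x60K arrays. The deposited scanner files hold intensity values from Feature Extraction 10.7.3.1 for 59305 spots besides controls. The authors also deposited a log2 table, used here for an alternative run. The median intensity of a spot was corrected by normexp (offset 16) against its local background, and arrays were quantile normalized in limma 3.58.1 (R 4.3.3). Control and outlier spots were then left out and spots of a probe averaged. Probes at least 10% above the 95th percentile of negative controls on 2 or more arrays were kept, since ES has 2 arrays (the methods use 3), which left 47997 of 55681. OS1 and OS2 differed by 0.894 times the spot noise and OS4 and OS5 by 0.397 times, and each pair was averaged. Group means were compared over 9 samples by limma's moderated test (lmFit, eBayes) with Benjamini-Hochberg adjustment over all kept probes and a threshold of 0.05. Probes were named through RefSeq accessions (26762 named). The number of arrays limits the precision.

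All 30 genes are named, with values per sample for the control genes and for the called genes with the largest differences. Members and lists were chosen with earlier results of these data known. The fit was tested on simulated data. Alternatives covered offsets of 0 and 50, the processed signal scaled to the 75th percentile, arrays set to one median, probe filters, the mean of all probes, separate arrays, slide and replicate blocks, a 2-fold minimum, and each sample left out. Some genes of the pathway lists are counted but not reported singly here.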

Additional observations from a re-analysis of the deposited data

How the results depend on the processing

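Leaving out 1 sample at a time, the count of genes higher in OS than in CSE ran from 3 to 8, higher in OS than in the ESCs from 2 to 7 and lower from 2 to 6, and in CSE against the ESCs higher from 1 to 2 and lower from 6 to 12. With arrays set to one median the counts were 3 higher in OS than in CSE, 1 higher and 3 lower in OS than in the ESCs, and 0 higher in CSE than in the ESCs. Of all named genes, that setting called 3.87%, 12.7%, 18.6% and 13.9% in the same order. With the processed signal scaled to the 75th percentile 3 were higher in OS and 0 in CSE than in the ESCs, against 15.2% and 16.8% of all named genes. An offset of 0 and the authors' log2 table each gave 3 higher in OS than in the ESCs. With a 2-fold minimum 3 were lower in OS than in the ESCs, the mean of all probes gave 2 higher in CSE than in the ESCs, and separate arrays gave 11 higher in OS than in CSE. Shares of all named genes were computed only for the main run and for the 2 other scalings. Both scalings moved the median over the 30 genes, in OS minus ES from 0.07 to -0.29 (75th percentile) and -0.26 (one median), and in CSE minus ES from -0.56 to -0.93 and -1.0. The median of all named genes moved with them by up to 0.26, and relative to it the 30 genes stood at -0.03 and -0.16 in OS minus ES and at -0.66 and -0.77 in CSE minus ES. Msmo1 in OS minus ES turned to -0.041 and -0.090. The median of OS minus CSE stayed between 0.40 and 0.74, no setting called a gene lower in OS than in CSE, and the F-test called 10 to 20 genes, 10 of them by the methods' one-way ANOVA.

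Deviations from the group mean were correlated between arrays with the same replicate number (7 pairs, r from -0.39 to 0.36, highest for OS1 with CSE1). The group means rest on few arrays, so these r values cannot show whether the numbers pair the samples. A replicate block was fitted on every array as a separate sample, which changes both choices together. It gave 8 genes higher in OS than in CSE, 5 higher and 1 lower in OS than in the ESCs, and 1 higher and 6 lower in CSE than in the ESCs, where separate arrays without the block gave 11, 7, 5, 1 and 11 in that order. The ESC group has 1 sample per line, so the line and the sample cannot be told apart, and with 2 such samples the comparisons with ESCs are the least certain.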
